A study of Homo sapiens with 5 samples.

Results

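A set of 1903 genomic regions carried a FOXK1 peak and an O-GlcNAc peak but no ASXL1 peak in Flp-In HEK293 T-REx cells. This established line derives from human embryonic kidney and carries a site for inserting transgenes and a tetracycline repressor. The regions were chosen by the presence of peaks, by pooling the peaks of the 3 deposited lists on chromosomes 1 to 22 and X, joining peaks that overlapped by at least 1 bp, and keeping the joined regions with both a FOXK1 and an O-GlcNAc peak and without ASXL1. They are called FOXK1/O-GlcNAc regions in what follows. They made up 1.19% of all 159864 merged regions, 8.94% of the 21286 regions with FOXK1 and 2.47% of the 76914 regions with O-GlcNAc. Of the 8134 regions that held FOXK1 and O-GlcNAc together, 23.4% were of this kind, and the other 6231 also held ASXL1.

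The series mapped 3 targets by chromatin immunoprecipitation with sequencing (ChIP-seq), in which DNA recovered with an antibody is sequenced and places with more tags than an input control are called as peaks. Each target, ASXL1, FOXK1 and O-GlcNAc, had 1 library, and the labels name no treatment or transgene. Preparation 63 of the chromatin served for ASXL1 and for O-GlcNAc, and preparation 62 for FOXK1, and either had an input of its own. In a FOXK1/O-GlcNAc region the FOXK1 peak therefore rests on preparation 62 alone. Its O-GlcNAc peak and its lack of ASXL1 rest on preparation 63 alone. ASXL1 and O-GlcNAc share a preparation and FOXK1 does not, and for any likeness between lists the target and the preparation cannot be told apart. No value has a replicate error, the sequencing depth is not known, and no test between antibodies was made. Positions are given in hg19, the build named in the submitters' processing notes, counted from 1. The genes and the sequence under the regions were not analysed here, because the tables at hand are of another build.

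FOXK1 is a forkhead transcription factor, a family whose winged-helix domain binds DNA, and it is known as a repressor that works with the Sin3 corepressor and acts on genes of autophagy and of glucose use. O-GlcNAc is a single sugar that the enzyme OGT places on serine and threonine of many nuclear proteins and that OGA removes, and its supply follows the hexosamine pathway. The antibody therefore reports a modification on chromatin and not 1 protein. ASXL1 is the partner that activates the histone H2A deubiquitinase BAP1, and FOXK1, FOXK2, HCFC1 and OGT are known members of the same set of complexes.

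Each peak carries the score of the authors' peak caller, which starts at 50 in each list. No header says what the score is, and it is read here as that of MACS 1.4, the negative log10 of a p-value times 10, from the tool named in the processing notes. The score depends on depth, so it was used here within a list only, as a percentile that gives the share of the list's peaks that score lower. The rule used the presence of peaks in all 3 lists, so the scores, widths and distances to ASXL1 that follow describe the FOXK1/O-GlcNAc regions and test nothing. Intervals are 95% intervals for counting error alone, since regions of 1 library are not replicates.

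Most of the regions were simple, with 1841 of 1903 (96.7%) made of 1 FOXK1 and 1 O-GlcNAc peak. A further 55 held 2 O-GlcNAc peaks with 1 FOXK1 peak, 1 held 3, and 6 held 2 FOXK1 peaks with 1 O-GlcNAc peak. In total they took up 1909 FOXK1 peaks, or 8.89% of the FOXK1 list on these chromosomes, and 1960 O-GlcNAc peaks, or 2.49% of the O-GlcNAc list. Their median width was 482 bp, from 187 to 2198 bp. Regions of all 3 lists had a median width of 863 bp, and regions of FOXK1 alone and of O-GlcNAc alone 384 bp and 215 bp.

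The FOXK1 peaks of these regions lay in the middle of the FOXK1 list. Their scores ran from 50.01 to 2685.53 with a median of 78.1, which put the median region at percentile 52.04 of the list (interval 50.2 to 54.3). The median FOXK1 score was 118 in regions of all 3 lists, 85.0 in regions of FOXK1 with ASXL1 alone and 64.7 in regions of FOXK1 alone. The regions that also held O-GlcNAc, or ASXL1, or both thus had the higher median FOXK1 scores, and those with both the highest. A FOXK1 score of at least 100 was found in 625 of the FOXK1/O-GlcNAc regions (32.8%), close to the 33.9% of all regions with FOXK1.

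Their O-GlcNAc peaks stood somewhat higher in their own list, at a median score of 74.3 and percentile 61.9 (interval 60.8 to 63.7). The range was again wide, from 50 to 2631.38. In regions of all 3 lists the median O-GlcNAc score was 165, in regions of O-GlcNAc with ASXL1 alone it was 111, and in regions of O-GlcNAc alone it was 62.7. O-GlcNAc peaks without ASXL1 had the lower medians whether or not FOXK1 was present. A score of at least 100 was reached by 517 of the 1903 regions (27.2%), against 21.0% of all regions with O-GlcNAc.

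Few of the regions were strong in both targets. Among the 1903 regions, 111 had a FOXK1 peak in the highest 10% of the FOXK1 list, 120 had an O-GlcNAc peak in the highest 10% of the O-GlcNAc list, and 20 had both (1.05%). Of all 8134 regions with FOXK1 and O-GlcNAc, 10.8% had both. At the other end, 387 regions (20.3%) lay in the lower 50% of both lists, compared with 268 of the 6231 regions of all 3 lists (4.30%). Across the 1903 regions Spearman's rho between the FOXK1 and O-GlcNAc scores was 0.138 (interval 0.0935 to 0.182), a description over regions of 2 libraries from different preparations. It was 0.168 over the regions of all 3 lists, where the O-GlcNAc and ASXL1 scores, from 1 preparation, had a rho of 0.621.

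**Figure D1:**
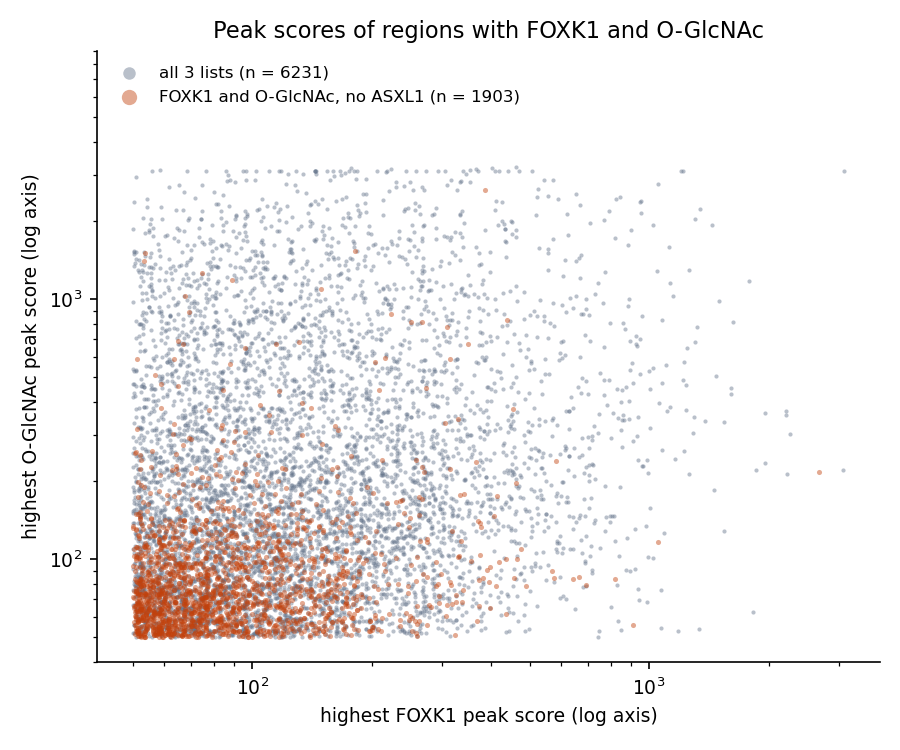
Each point is a region with FOXK1 and O-GlcNAc, placed by its highest FOXK1 score and its highest O-GlcNAc score on log axes. The 1903 regions without ASXL1 have median scores of 78.1 for FOXK1 and 74.3 for O-GlcNAc, lower than the 118 and 165 of the 6231 regions of all 3 lists.

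Among the 8134 regions with FOXK1 and O-GlcNAc, the share without ASXL1 went down as either score went up. Where both peaks lay in the lower 50% of their lists, 387 of 655 regions lacked ASXL1 (59.1%, interval 55.3 to 62.8). With FOXK1 still in its lower 50% and O-GlcNAc in its highest 10%, 42 of 672 lacked it (6.25%). At like FOXK1 scores, a high O-GlcNAc score thus left few regions without ASXL1. With FOXK1 in its highest 10% and O-GlcNAc in its lower 50%, the number was 24 of 128 (18.8%, interval 12.9 to 26.4). Where both were in the highest 10%, 20 of 875 regions lacked ASXL1 (2.29%, interval 1.48 to 3.50).

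When each list was divided into 10 classes of score, the share without ASXL1 was lower with FOXK1 than without it in every O-GlcNAc class. In percentage points the difference was wide in the lower classes and small in the highest, where both shares were low. In the lowest O-GlcNAc class, 132 of 252 regions with FOXK1 lacked ASXL1 (52.4%), and 6821 of 7402 regions without FOXK1 lacked it (92.2%). Over all regions with O-GlcNAc, 74.3% lacked ASXL1. The share stayed between 46.4% and 52.4% in the 5 lowest classes with FOXK1, and was 20.1% in the ninth. In the highest class the shares were 3.97% with FOXK1 (120 of 3026 regions, interval 3.33 to 4.72) and 8.04% without FOXK1 (377 of 4687, interval 7.30 to 8.86). These intervals did not overlap. Nearly all O-GlcNAc peaks of that class thus coincided with ASXL1, with or without FOXK1.

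In the highest FOXK1 class, 111 of 1566 regions with O-GlcNAc lacked ASXL1 (7.09%, interval 5.92 to 8.47), and 318 of 564 regions without O-GlcNAc lacked it (56.4%, interval 52.3 to 60.4). In the lowest FOXK1 class the shares were 39.4% with O-GlcNAc and 88.6% without, and over all regions with FOXK1 57.7% lacked ASXL1. Region width moved with these classes, at medians of 384 bp for FOXK1 alone, 482 bp for FOXK1/O-GlcNAc regions and 863 bp for regions of all 3 lists. With every peak set to a window of 400 bp on its centre, the shares in the highest classes were 6.98% with and 13.2% without FOXK1, and 9.26% with and 57.5% without O-GlcNAc. Without the widest 1% of peaks in each list they were 7.36% and 12.4%, and 9.41% and 49.8%.

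**Figure D2:**
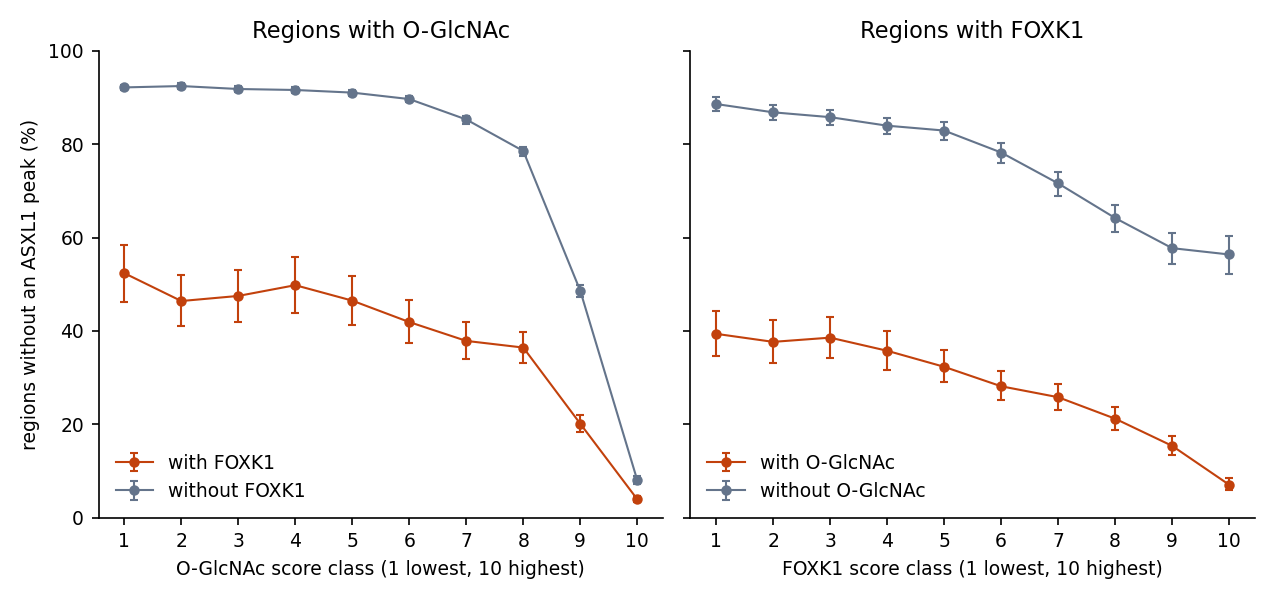
Share of regions without an ASXL1 peak in 10 score classes of O-GlcNAc (left) and FOXK1 (right), with 95% Wilson intervals, for regions with and without the other target. In the highest O-GlcNAc class both lines end low, at 3.97% and 8.04%, and in the highest FOXK1 class they end at 7.09% with and 56.4% without O-GlcNAc.

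The ASXL1 scores of the regions of all 3 lists covered a broad range. Of these 6231 regions, 606 had an ASXL1 score from 50 to 75, 448 one from 75 to 100, 1243 one from 100 to 200, 1439 one from 200 to 500, 1144 one from 500 to 1000 and 1351 one of 1000 or more. Nearest to the lowest listed score of 50 stood chr8:125056783-125057256 with an ASXL1 score of 50.01, chr6:151018452-151019112 with 50.1 and chr1:151906358-151906856 with 50.15. The FOXK1/O-GlcNAc regions nearest to the overlap limit almost touched an ASXL1 peak. These were chr7:115996905-115997551 with a gap of 3 bp, chr3:4675034-4675388 with 12 bp and chr15:99366219-99366850 with 14 bp. The last of these had a FOXK1 score of 374.18 (percentile 96.2) and an O-GlcNAc score of 136.98 (percentile 86.5).

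The median distance from a FOXK1/O-GlcNAc region to the nearest ASXL1 peak was 6745 bp (interval 6308 to 7403). It was 9386 bp for regions of FOXK1 alone and 11298 bp for regions of O-GlcNAc alone, in the whole lists. With all 3 lists held to a score of at least 100, which shortens the ASXL1 list and gives 420 FOXK1/O-GlcNAc regions, their median distance was 23093 bp (interval 17035 to 28107). An ASXL1 peak lay within 1 kb of 315 of the 1903 regions (16.6%), against 11.5% of all regions without ASXL1. Within 10 kb the number was 1155 (60.7%), against 48.1% of all such regions. For FOXK1 alone and O-GlcNAc alone the shares within 1 kb were 12.4% and 11.2%. These values come from the ASXL1 list that the rule used and are given as a description.

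For the 315 regions near ASXL1, the nearest ASXL1 peak had a median score of 82.1, at percentile 57.0 of the ASXL1 list, and 125 of the 315 had a score of at least 100 (39.7%). In 164 cases it was an ASXL1 peak alone (52.1%), in 64 it belonged to a region of all 3 lists (20.3%), in 56 to ASXL1 and O-GlcNAc, and in 31 to ASXL1 and FOXK1. Their own scores were like those of the 1588 regions farther away. The median FOXK1 scores were 75.5 near ASXL1 and 79.1 farther away, and the median O-GlcNAc scores 74 and 74.6.

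**Figure D3:**
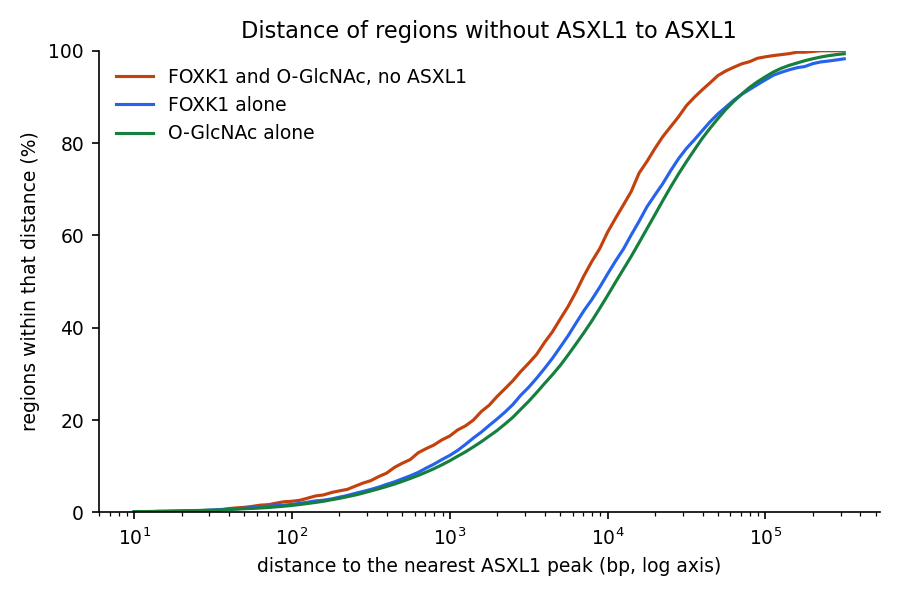
Cumulative share of regions (vertical axis, percent) within a given distance in bp of an ASXL1 peak (log axis), for the 3 classes of regions that hold FOXK1 or O-GlcNAc and no ASXL1. The curve of the FOXK1/O-GlcNAc regions reaches 60.7% at 10 kb, and those of FOXK1 alone and O-GlcNAc alone reach 51.6% and 47.0%.

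The rule required joined peaks, which limits how far apart their centres can lie. The centres of the highest-scoring peak of each list were a median of 69.5 bp apart (interval 65.5 to 73.0), and 1246 of 1903 pairs lay within 100 bp (65.5%). The O-GlcNAc peak lay wholly inside the FOXK1 peak in 909 regions (47.8%), the FOXK1 peak inside the O-GlcNAc peak in 82 (4.31%), and in 912 each reached past the other. The FOXK1 peaks had a median width of 420 bp and the O-GlcNAc peaks 278 bp. In regions of all 3 lists the peaks were wider, at 689 and 512 bp, with centres a median of 79.5 bp apart. The sonicated chromatin averaged 150 to 400 bp per the labels' protocols, so the median offset is below the fragment length. In the 120 regions with O-GlcNAc in the highest 10% the median offset was 57.25 bp, and in the 722 with O-GlcNAc in the lower 50% it was 75.75 bp.

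**Figure D4:**
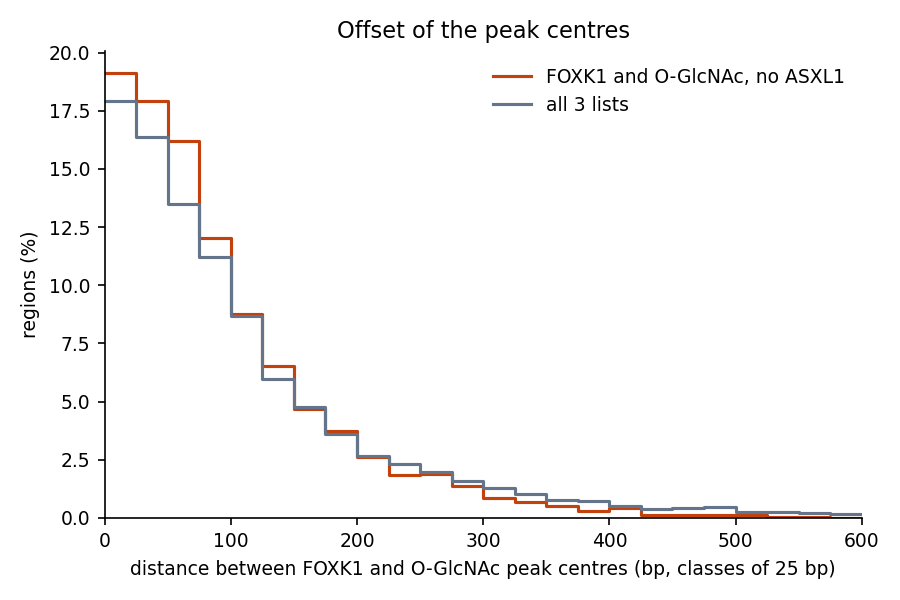
Distance between the centres of the highest-scoring FOXK1 and O-GlcNAc peaks, as the percent of regions in classes of 25 bp. Both classes are highest at the shortest distances, the regions without ASXL1 all lie within 566 bp, and 181 regions of all 3 lists lie beyond the axis.

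The region with the lowest sum of ranks of both scores lay at chr19:59083938-59085218. Its FOXK1 score was 437.71 (rank 17 of the 1903) and its O-GlcNAc score 827.53 (rank 11), with centres 21 bp apart in peaks of 1281 and 1145 bp. An ASXL1 peak lay 808 bp away. The next, chr1:177953224-177953711, had the highest O-GlcNAc score of the set, 2631.38 (percentile 99.8), with a FOXK1 score of 386.32 (percentile 96.4). The nearest ASXL1 peak was 47338 bp away, so this strong O-GlcNAc position had none nearby.

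Chromosome 17 held 3 of the 10 regions with the lowest rank sums. At chr17:78549061-78549670 the scores were 454.58 for FOXK1 and 378.36 for O-GlcNAc, with ASXL1 1931 bp away. At chr17:72509915-72511271 they were 314.21 and 586.66, in 2 wide peaks of 1311 and 1272 bp, and ASXL1 lay 42393 bp away. At chr17:37558711-37559177 they were 329.98 and 345.87 with centres 10.5 bp apart, and ASXL1 lay 408 bp away. These positions had like scores but distances to ASXL1 that spanned 2 orders of magnitude.

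Of the remaining regions among these 10, chr11:36310811-36311392 had scores of 350.66 for FOXK1 and 670.07 for O-GlcNAc, 35620 bp from ASXL1. At chr1:27560326-27561515 they were 309.92 and 782.27, with centres 172 bp apart, the widest offset among the 10. At chr6:80131371-80132295 they were 583.99 and 238.38, and an ASXL1 peak lay 886 bp away. FOXK1 ranked higher than O-GlcNAc within the set at this last position, and lower at the other two. At chr21:35340385-35341187 the scores were 268.55 and 812.78, with 2595 bp to ASXL1. All 10 had both scores in the highest 10% of their lists, and 3 of them had an ASXL1 peak within 1 kb.

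The 3 highest FOXK1 scores of the set went with O-GlcNAc scores at unlike places in the O-GlcNAc list. The top one, chr12:120763071-120763715, had a FOXK1 score of 2685.53 (percentile 99.9 of the list) and an O-GlcNAc score of 215.59 (percentile 91.4), and it is also the last of the 10 above. At chr2:44314384-44314816 a FOXK1 score of 1051.41 met an O-GlcNAc score of 115.99 (percentile 83.4), in an O-GlcNAc peak 167 bp wide. At chr5:37717390-37718437 a FOXK1 score of 911.89 met an O-GlcNAc score of 55.67, at percentile 20.02 of its list. ASXL1 lay 7181, 42852 and 4712 bp from them in this order.

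The region on chromosome 1 described above had the highest O-GlcNAc score. After it, the highest O-GlcNAc scores were 1521.52 at chr5:131525882-131526394, with a FOXK1 score of 181.46 (percentile 86.2), and 1496.54 at chr16:84299980-84300316, with a FOXK1 score of 53.75 (percentile 11.9). In the latter, the FOXK1 peak of 277 bp lay inside the O-GlcNAc peak of 337 bp. ASXL1 was 8353 and 14597 bp away. The 3 widest regions were chr10:111984875-111987072 (2198 bp), chr1:231553206-231554887 (1682 bp) and chr8:42009803-42011403 (1601 bp). The first and the last held 2 O-GlcNAc peaks each with 1 FOXK1 peak.

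The 20 regions with both scores in the highest 10% lay on 12 chromosomes, 4 of them on chromosome 17 and 3 on chromosome 1, which hold 4.10% and 14.2% of all 1903. An ASXL1 peak was within 1 kb of 5 of the 20, where 16.6% of all 1903 had one, and so small a count does not set them apart. Their distances ran from 237 to 47338 bp with a median of 7474 bp.

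Position along the genome was not used by the rule, apart from the choice of chromosomes. Chromosome 1 held 270 of the 1903 regions (14.2%, interval 12.7 to 15.8), chromosome 6 held 179 (9.41%), chromosome 5 held 146 (7.67%) and chromosome 10 held 122 (6.41%). Chromosome 22 held the fewest, 20 (1.05%). Per Mb, counted to the last peak of each chromosome, chromosome 1 had 1.08 and chromosome 6 had 1.05, against 0.627 over all chromosomes and 0.319 on chromosome 4. Some other classes had like shares on chromosome 6, with 9.31% of regions of all 3 lists, 9.33% of O-GlcNAc alone and 8.77% of FOXK1 alone. ASXL1 with FOXK1 had 8.76% there. The shares of ASXL1 alone (7.22%) and of ASXL1 with O-GlcNAc (6.71%) were lower. On chromosome 5 the shares were 6.98% of regions of all 3 lists, 9.29% of O-GlcNAc alone and 8.60% of FOXK1 alone. ASXL1 with O-GlcNAc had the lowest share of all classes there. The number of copies of each chromosome in this line was not examined, and its part in these shares was not tested.

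The chromosome shares were compared with those of the regions of all 3 lists on 23 chromosomes. Chromosome 19 held 45 regions without ASXL1 (2.36%) and 283 with it (4.54%), a difference of −2.18 percentage points (Newcombe interval −2.98 to −1.25, and −3.40 to −0.659 when widened for 23 comparisons). It was the only chromosome whose widened interval left out 0. Chromosome 1 had the widest difference in the other direction, 2.49 points, with a widened interval from −0.136 to 5.37. Of the 328 regions with FOXK1 and O-GlcNAc on chromosome 19, 13.7% thus lacked ASXL1 (interval 10.4 to 17.9), against 23.4% over all chromosomes and 34.4% on chromosome 21 (32 of 93, interval 25.5 to 44.5). The other classes held 1.12% (ASXL1 with FOXK1), 1.60% (FOXK1 alone), 2.05% (O-GlcNAc alone), 4.33% (ASXL1 alone) and 6.65% (ASXL1 with O-GlcNAc) of their regions there, so low shares were found with and without ASXL1.

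**Figure D5:**
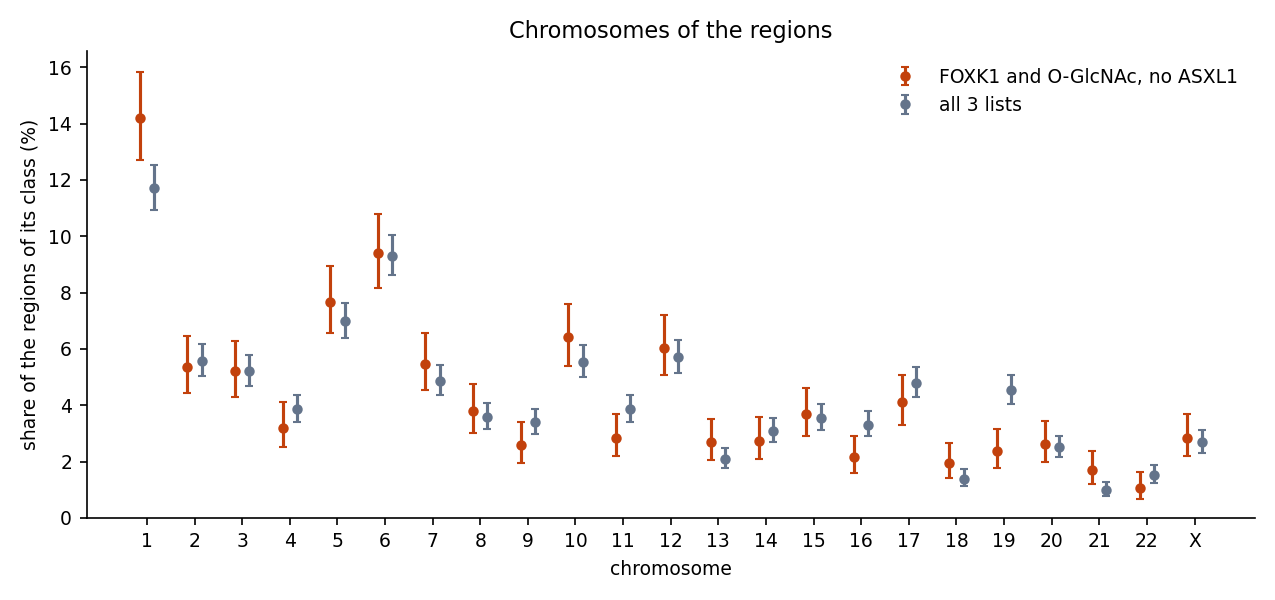
Share of the regions of each class on each chromosome, in percent with 95% Wilson intervals, for FOXK1/O-GlcNAc regions without ASXL1 and for regions of all 3 lists. On chromosome 19 the shares are 2.36% and 4.54%, and on chromosome 1 they are 14.2% and 11.7%.

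The regions were mostly scattered. The median gap to the next region of the same kind was 280524 bp, and 106 of 1903 had another within 10 kb (5.57%). They fell in 1122 windows of 1 Mb, of which 639 held exactly 1, 27 held 5 or more, and none held more than 8. In windows with a FOXK1/O-GlcNAc region the median numbers of other regions were 3 of all 3 lists, 4 of FOXK1 alone, 24 of O-GlcNAc alone and 30 of ASXL1 alone. In windows with none they were 1, 2, 13 and 13. Windows that held a FOXK1/O-GlcNAc region thus held more regions of all these classes.

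Neighbours of other classes were counted within 10 kb. A region of O-GlcNAc alone lay within 10 kb of 50% of the FOXK1/O-GlcNAc regions, one of ASXL1 alone of 49.0%, one of FOXK1 alone of 19.2% and one of all 3 lists of 12.8%. A region of all 3 lists lay within 10 kb of 10.2% of regions of FOXK1 alone and of 7.0% of regions of O-GlcNAc alone. One of ASXL1 alone lay within 10 kb of 41.8% and 39.5% of them. O-GlcNAc alone lay within 10 kb of 42.9% of regions of FOXK1 alone, and FOXK1 alone within 10 kb of 10.5% of regions of O-GlcNAc alone. ASXL1 with O-GlcNAc was as near to 17.3% of the FOXK1/O-GlcNAc regions, against 12.8% of FOXK1 alone and 12.04% of O-GlcNAc alone. Among regions of all 3 lists, 62.5% had ASXL1 alone within 10 kb and 27.5% ASXL1 with O-GlcNAc, more than the FOXK1/O-GlcNAc regions. O-GlcNAc alone was near 46.0% of them and FOXK1 alone near 16.5%, fewer than the FOXK1/O-GlcNAc regions. ASXL1 with FOXK1 was near 7.46% of the FOXK1/O-GlcNAc regions (interval 6.37 to 8.73) and 6.74% of regions of FOXK1 alone (interval 6.27 to 7.23), which overlap. It was near 3.50% of regions of O-GlcNAc alone (interval 3.35 to 3.66) and 9.18% of regions of all 3 lists (interval 8.49 to 9.92).

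The 5 windows of 1 Mb with 7 or more FOXK1/O-GlcNAc regions, a limit chosen after the counts were seen, lay on chromosomes 1, 12, 17, 21 and X. On chromosome 21, 8 regions stretched from 38128847 to 38909636, with FOXK1 scores from 51.17 to 356.94 and O-GlcNAc scores from 50.59 to 100.68. On chromosome 1, 8 regions stretched from 225072024 to 225882228, in a window with 1 region of all 3 lists. On chromosome X the 7 regions lay closer together, from 130767474 to 130918410. There 13 of the 15 regions with FOXK1 also held O-GlcNAc (86.7%), compared with 38.2% over the series and at most 45.5% in each of the other 4 windows. The windows were picked for their FOXK1/O-GlcNAc regions, which raises this share by construction, and 7 of the 13 are those regions.

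Of the 7 regions on chromosome X, 4 had O-GlcNAc scores above every such region of the other 4 windows. The highest, at chrX:130897606-130898323, had an O-GlcNAc score of 324.09 and a FOXK1 score of 162.08, with ASXL1 408 bp away. At chrX:130917651-130918410 the scores were 311.34 for O-GlcNAc and 90.55 for FOXK1. At chrX:130875693-130876259 they were 197.78 and 109.55, and at chrX:130838127-130838583 they were 189.55 and 73.94. In the other 4 windows the highest O-GlcNAc score of such a region was 169.7. An ASXL1 peak lay within 1 kb of 3 of the 7, so a listed ASXL1 peak was close to some of them without overlap.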

How the data were processed

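Per the labels' descriptions, each ChIP library had the input of its own chromatin preparation as control. The values are the peak scores that the authors deposited, 1 list per library with no pooling. The submitters' processing notes name Bowtie2 2.0.0, MACS 1.4 and hg19; settings, read filters and depth are not given in the sources used here. The ASXL1 list has 94237 peaks, the FOXK1 list 21697 and the O-GlcNAc list 78825.

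Peaks were merged in Python 3.11.15 with pandas 2.3.3 and scipy 1.17.1, and the merging and distances were tested on simulated peaks and against bedtools 2.31.1. The highest score per list stands for a region. Shares carry 95% Wilson intervals, differences of shares Newcombe intervals, medians intervals from order statistics, and rho one from Fisher's z. PCR duplicates and molecular identifiers are not described, so intervals cover counting error only.

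The members and lists were chosen with earlier results of these data known. Named regions are the 10 whose FOXK1 and O-GlcNAc ranks add up to least, the 3 highest per score, the 3 widest, the 3 with the shortest gap to ASXL1 and the 3 of all lists with the lowest ASXL1 score; windows of 1 Mb were added. Gene starts, gene lists, sequence content and motifs were not analysed here, nor were the input libraries.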

Additional observations from a re-analysis of the deposited data

Results flagged for a closer look

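Outside chromosomes 1 to 22 and X, which the comparisons above do not use, 10 further regions held a FOXK1 and an O-GlcNAc peak and no ASXL1 peak. The lists place 3 of them on chromosome Y and 3 on the unplaced contig Un_gl000225. Un_gl000220 held 2, and 17_gl000205_random and Un_gl000216 held 1 each. How uniquely tags map to these sequences was not examined, nor whether the cells carry a Y chromosome. The listed positions therefore need not be the places bound in these cells. The highest FOXK1 score among the 10 regions was 229.97, at a position listed on Y, and the highest O-GlcNAc score 138.41 on 17_gl000205_random. These regions are listed because they lie in data that the comparisons do not use, and no expected number was set for them.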

How the results depend on the processing

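No paired analysis was possible because a single library stands for each target, and none could be left out. Under 7 alternatives, 27 of 55 values of 12 results stayed within the limits of the reported one and 28 moved. The limits were a factor of 1.5 for the number of regions and the 95% interval for the other results. Windows of 400 bp on peak centres, and all alternatives for shares in the highest score classes, were chosen after seeing the data. Alternatives for gene starts, gene lists and sequence were not run.

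The number of regions depended most on the score: 1903 became 210 with FOXK1 and O-GlcNAc scores of at least 100, and 420 when ASXL1 was held to the same threshold, of which 210 overlapped none of the 1903. The other alternatives gave 1588 to 2100. With both scores at least 100, or with all 3 lists so limited, the median distance to ASXL1 was 8225 or 23093 bp, the FOXK1 percentile 80.8 or 83.2, the O-GlcNAc percentile 86.5 or 86.7 and the centre offset 60.75 or 65.0 bp; rho was 0.203 in the first case. These shifts include what the settings fix by construction: a higher threshold removes low percentiles and shortens the ASXL1 list. Without regions within 1000 bp of ASXL1 the median distance was 9210 bp, and the shares without ASXL1 in the highest O-GlcNAc class were 3.14% with and 6.81% without FOXK1. In the highest FOXK1 class they were 5.87% with and 51.4% without O-GlcNAc. Without the widest 1% of peaks those shares were 7.36%, 12.4%, 9.41% and 49.8% in the same order, and the O-GlcNAc percentile 63.9. Where joined peaks had to share 50% of the shorter one, the offset was 63.25 bp. With 400 bp windows the distance was 5965 bp, the O-GlcNAc percentile 63.8 and rho 0.183, and the shares 6.98%, 13.2% and 9.26%. The cause was not tested elsewhere. The difference on chromosome 19 was −1.80 points without regions within 1000 bp of ASXL1.

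Depth is unknown, so "without ASXL1" means that no ASXL1 peak was listed, and lists start at a score of 50.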
